A study of Mus musculus with 11 samples.

Results

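The tiles described here are 377 of 98054 fixed 1000-bp stretches of the mouse autosomes (0.384%) in which DNA methylation was lower in Dnmt3a-knockout LSK cells than in control LSK cells, while the difference between the labelled knockout and control GMP libraries was at -3 percentage points or above. A tile was eligible if at least 3 of its C positions had a coverage of at least 10 reads in all 10 libraries with a clear genotype. Its level in a library is the percent of all its reads at those positions that were methylated. All 3 knockout LSK libraries had to lie below all 3 control LSK libraries, with a mean at least 15 points lower. The tiles were thus chosen by the measured LSK and GMP levels of these 10 libraries, and values of both contrasts are a description with no test. A working name for the set was loss in knockout LSK only, and a GMP library outside the rule went against that name, so the tiles are called here by their rule.

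The libraries came from enhanced reduced representation bisulfite sequencing of sorted bone marrow cells of C57BL/6 mice. LSK cells (lineage-negative, Sca1-positive, cKit-positive) hold the blood stem cells and multipotent progenitors, and GMP (granulocyte-macrophage progenitors, Sca1-negative with CD34 and Fc gamma receptor) are myeloid cells that descend from them. Every animal carried Dnmt3a f/f and, per the labels, 5 intraperitoneal poly(I:C) injections were the means of inducing Cre. The series text gives an age of 12 months. Knockout animals carried the Mx1-Cre transgene as well (libraries 1327, 1333 and 1334 of LSK, 178 and 179 of GMP), and control animals lacked it (1326, 1330 and 1331 of LSK, 346 and 349 of GMP). The Mx1 promoter responds to interferon in many tissues, so deletion is not limited to the sorted cells and need not reach every cell. GMP library 352 is called Cre-positive in its title and Cre-negative in its genotype field. It was put in no group, did not enter the rule, and its values stand beside those of the other GMP libraries. The labels do not say whether each library came from another animal.

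DNMT3A adds methyl groups to unmethylated CpG sites, whereas DNMT1 copies an existing pattern to the new strand after replication. In blood stem cells DNMT3A is known for its part in differentiation, and its gene is often mutated in clonal haematopoiesis and myeloid leukaemia. Lower methylation in cells without it can be shared by progenitors along a lineage or seen at one stage. In bulk cells, an intermediate level can come from part of the cells or from part of the alleles, and these cannot be told apart.

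A few annotated transcript starts show what such a tile looks like in sequence. They are the protein-coding RefSeq promoter windows (GRCm38.p6, 250 bases before to 50 after the start, read on the gene's strand) that overlap a member tile and hold at least 3 measured CpGs in full, and were chosen after the values had been seen. Capitals mark the CpGs measured in all 10 libraries. The last base of the Celf2 and Arhgef18 windows is also a measured C, of a CpG cut by the window's end, and is in lower case. Most of the Arhgef18 window lies before its tile.
Celf2, chr2:7081253-7081552, minus strand: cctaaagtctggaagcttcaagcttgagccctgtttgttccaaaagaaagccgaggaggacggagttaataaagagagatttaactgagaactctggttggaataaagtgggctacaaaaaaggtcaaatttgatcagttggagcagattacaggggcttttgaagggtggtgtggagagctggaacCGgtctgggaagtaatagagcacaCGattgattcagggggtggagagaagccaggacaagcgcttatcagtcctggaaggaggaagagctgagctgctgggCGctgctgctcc
Fam167b, chr4:129578531-129578830, minus strand: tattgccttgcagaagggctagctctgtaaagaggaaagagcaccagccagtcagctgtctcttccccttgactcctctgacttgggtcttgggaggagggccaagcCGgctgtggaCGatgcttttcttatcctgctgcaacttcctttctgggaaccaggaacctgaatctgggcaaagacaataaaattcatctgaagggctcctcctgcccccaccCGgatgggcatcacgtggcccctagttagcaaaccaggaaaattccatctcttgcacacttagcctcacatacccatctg
Lypd3, chr7:24636320-24636619, plus strand: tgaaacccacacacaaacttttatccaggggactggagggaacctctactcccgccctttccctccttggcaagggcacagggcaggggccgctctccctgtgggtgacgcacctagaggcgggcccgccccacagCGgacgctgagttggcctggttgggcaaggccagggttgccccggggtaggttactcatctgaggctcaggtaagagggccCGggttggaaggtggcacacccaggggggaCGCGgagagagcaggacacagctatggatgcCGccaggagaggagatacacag
Arhgef18, chr8:3392758-3393057, plus strand: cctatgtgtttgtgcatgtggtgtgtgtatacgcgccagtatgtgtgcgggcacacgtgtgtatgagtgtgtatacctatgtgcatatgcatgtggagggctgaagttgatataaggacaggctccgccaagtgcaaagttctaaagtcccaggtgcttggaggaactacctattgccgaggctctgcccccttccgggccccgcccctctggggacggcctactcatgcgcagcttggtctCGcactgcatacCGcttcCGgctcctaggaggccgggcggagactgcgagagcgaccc
Clec14a, chr12:58269209-58269508, minus strand: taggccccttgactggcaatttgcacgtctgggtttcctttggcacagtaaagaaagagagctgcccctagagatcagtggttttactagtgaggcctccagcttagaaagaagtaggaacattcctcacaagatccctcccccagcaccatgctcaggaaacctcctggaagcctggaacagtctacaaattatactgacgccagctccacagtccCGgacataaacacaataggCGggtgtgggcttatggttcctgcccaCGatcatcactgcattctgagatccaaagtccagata
These windows held 6, 4, 12, 17 and 5 CpGs in the order shown, against a median of 7 over 31396 autosomal windows. CCGG, the palindromic cut site of the MspI enzyme used for these libraries, occurred in all 5 and in 53.5% of all autosomal windows. Reads begin at such sites, so a CpG far from one is seldom covered. Windows chosen for measured CpGs are thus likely to hold the site, whatever their methylation.

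In the Arhgef18 window, the measured CpG 5 bases after the start was at 3.21%, 0% and 1.71% in knockout LSK 1327, 1333 and 1334, against 32.0%, 24.6% and 12.3% in control LSK 1326, 1330 and 1331. In GMP the same CpG was at 32.7% and 46.0% in knockouts 178 and 179, and at 26.1% and 43.3% in controls 346 and 349. Knockout LSK was thus almost unmethylated at a position where both GMP genotypes kept a similar level, and GMP library 352 read 0% there. Over the whole tile (chr8:3393001-3394000) the mean was 5.75% ± 3.03 in knockout LSK and 24.6% ± 4.32 in control LSK (SD, n = 3 each).

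Clec14a encodes a C-type lectin of endothelial cells. The CpG 13 bases after its start was at 25%, 15.4% and 17.8% in knockout LSK, against 34.6%, 50.0% and 40.5% in control LSK. Knockout GMP had 46.2% and 41.2% there and control GMP 32.3% and 37.4%, while library 352 had 9.93%. The 2 CpGs upstream of it were more methylated in every library and also differed in knockout LSK, by -16.8 and -20.4 points on average. Lypd3, a GPI-anchored surface protein, was lower on average in knockout LSK at all 5 measured CpGs. The CpG 33 bases before its start was at 39.5%, 27.7% and 34.3% in knockout LSK, against 63.2%, 54.4% and 72.1% in control LSK, and at 56.8% and 60.3% in knockout GMP, against 43.1% and 34.0% in control GMP. Library 352 had 23.4% there. At the other measured Lypd3 CpGs it differed from the control GMP mean by 1.03, -27.7, -27.8 and -33.1 points.

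A tile is an average over its positions, and single CpGs could go against it. At Celf2, which encodes an RNA-binding protein, the tile level was 19.3% and 22.4% in knockout GMP, against 22.2% and 22.1% in control GMP. The C position 49 bases after the start, the last base printed above, was nevertheless at 6.56% and 10.7% in knockout GMP, against 28.9% and 27.6% in control GMP. In LSK it was at 10.9%, 1.38% and 7.69% in knockouts, against 38.4%, 34.9% and 30.8% in controls. The CpG 29 bases before the start of Fam167b was likewise lower in GMP, with 50.0% in both knockouts and 76.1% and 66.9% in controls.

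**Figure D1:**
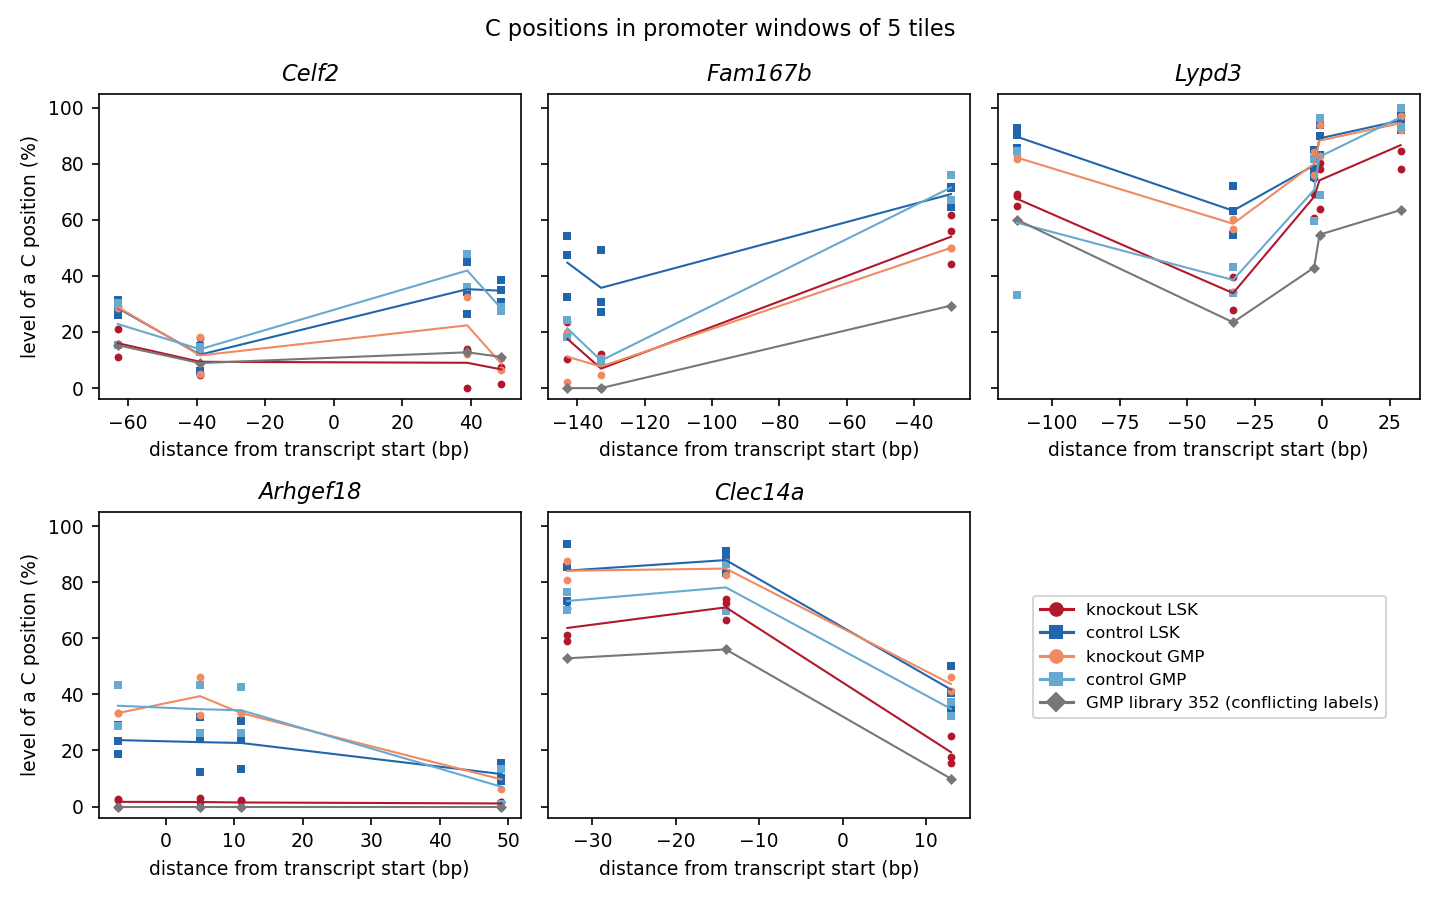
Methylation level (%) of each measured C position in the 5 promoter windows, against distance from the transcript start in bp, with 1 point per library and lines through the group means. Knockout LSK lies below control LSK on average at Arhgef18, Clec14a and Lypd3, with overlapping libraries at the Lypd3 position 29 bases after the start. Knockout GMP does not lie below control GMP on average at most of these positions, and library 352 lies at 0% at the 4 Arhgef18 positions.

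Depth (the sum of coverage over C positions, in units of 1e6 reads) ranged from 157 to 181 in LSK and from 95.4 to 110 in GMP. In the Dnmt3a gene (chr12:3903653-3904031), 5 C positions were listed in all 5 control libraries and in none of the 3 knockout LSK libraries, nor in library 352. Knockout GMP 178 listed 4 of them with 27.9% of the coverage in control GMP, scaled by flanking positions, and 179 listed all 5 with 53.3%. Reads from the segment were thus still present in the 2 GMP libraries that define the GMP limit of the rule. The part of these reads in the GMP values was not tested. Sorted identity was checked on methylation of marker genes: the GMP markers Mpo, Ctsg, Cebpe and Fcgr3 were lower in control GMP than in control LSK with no overlap, Elane and Prtn3 overlapped, and Ms4a3 had no usable position. Among LSK markers, Mecom and Meis1 were higher in control GMP with no overlap, Hlf, Procr and Gata2 overlapped, and Ly6a had no usable position. Among LSK libraries, knockout 1327 and control 1326 listed 1422 and 1470 Y-chromosome positions, and the other 4 listed 211 to 229. Knockout 1333 listed 129007 C positions found in no other LSK library, against 8004 to 26072 for each of the others.

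The LSK condition alone was met by 2284 tiles (2.33% of those eligible), and the mirrored rise by 21 (0.0214%). Of the 2284, 1284 were also lower in knockout GMP by 10 points or more and 623 lay between -10 and -3 points, which left the 377. Without knockout LSK 1327, the same rule on the other libraries gave 755 tiles, and library 352 minus control GMP had a median of -8.05 points over them. A GMP difference of -3 points or above was found in 77.2% of all eligible tiles. The mirrored set also existed: in 1659 of the 98054 tiles both knockout GMP libraries were below both control GMP libraries, with a mean at least 15 points lower. In 259 of these the LSK difference was at -3 points or above. These counts rest on 2 libraries against 2, and the LSK counts on 3 against 3.

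Over the 377 tiles the median level was 48.7%, 39.2% and 43.9% in knockout LSK 1327, 1333 and 1334, against 65.3%, 63.6% and 65.6% in control LSK 1326, 1330 and 1331. In GMP it was 54.1% and 56.7% in knockouts 178 and 179, against 52.6% and 54.3% in controls 346 and 349. The 3 knockout LSK libraries were unequal: 1333 was the lowest of them in 231 tiles, 1334 in 108 and 1327 in 38. The median LSK difference was -18.3 points and ranged from -39.03 to -15.01, and it was -0.37 points over all eligible tiles. Losses of 15 to 20 points made up 247 tiles, losses of 20 to 30 points 116, and losses of 30 points or more 14.

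**Figure D2:**
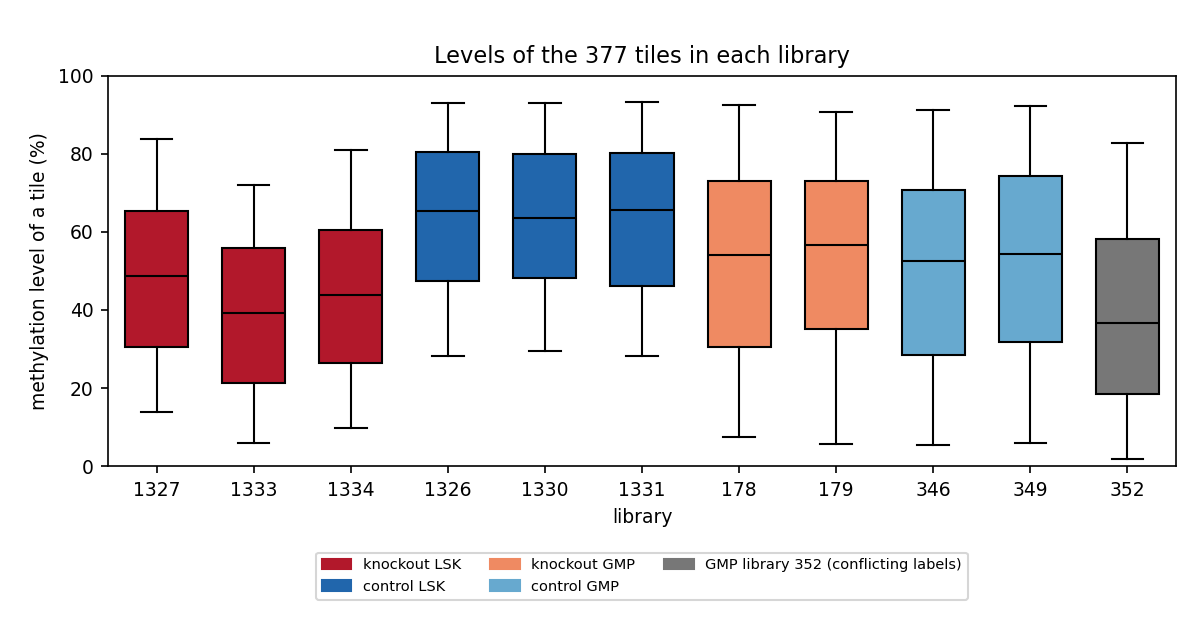
Methylation level (%) of the 377 tiles in each library, shown as the median, the quartiles and whiskers at the 5th and 95th percentiles. The medians of knockout LSK lie between 39.2% and 48.7%, those of control LSK between 63.6% and 65.6%, and library 352 has 36.8%.

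Within libraries with many Y positions, knockout 1327 was lower than control 1326 by a median of 14.5 points. Within those with few, knockouts 1333 and 1334 averaged 20.7 points below controls 1330 and 1331 (median). The rule fixes the direction in both splits, so only their sizes are given. In 282 tiles all 3 knockouts were at least 10 points below the control mean. In 31 tiles the loss was under 10 points without the lowest knockout, and in 2 it was under 5 points. The part of the positions found in library 1333 alone in these values was not tested.

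Library 352 is the only GMP library that the rule did not use. It was listed in 376 of the tiles, and its level there was below both control GMP libraries in 304 (80.9%, against 44.9% of all eligible tiles). The median of 352 minus the mean of control GMP was -11.1 points, against -0.41 over all eligible tiles. It was at least 10 points lower in 214 tiles (56.9%, against 9.77% of all eligible tiles) and at least 20 points lower in 81 (21.5%, against 3.27%). It was at -3 points or above in 70 tiles (18.6%, against 70.6%), and above both controls in 24 (6.38%, against 22.9%). The 2 knockout GMP libraries that chose the tiles had medians of -0.40 (178) and 1.32 points (179).

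Library 352 was lower still in the tiles outside the set, with a median of -18.7 points where the GMP difference was between -10 and -3 and of -31.4 points where it was -10 or less. The order of the 3 classes was the same in 352 as in the libraries that defined them. The control GMP libraries in these differences helped to choose the tiles. Since 352 belongs to no group, its values are not a result for knockout or control cells, and they were not tested.

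**Figure D3:**
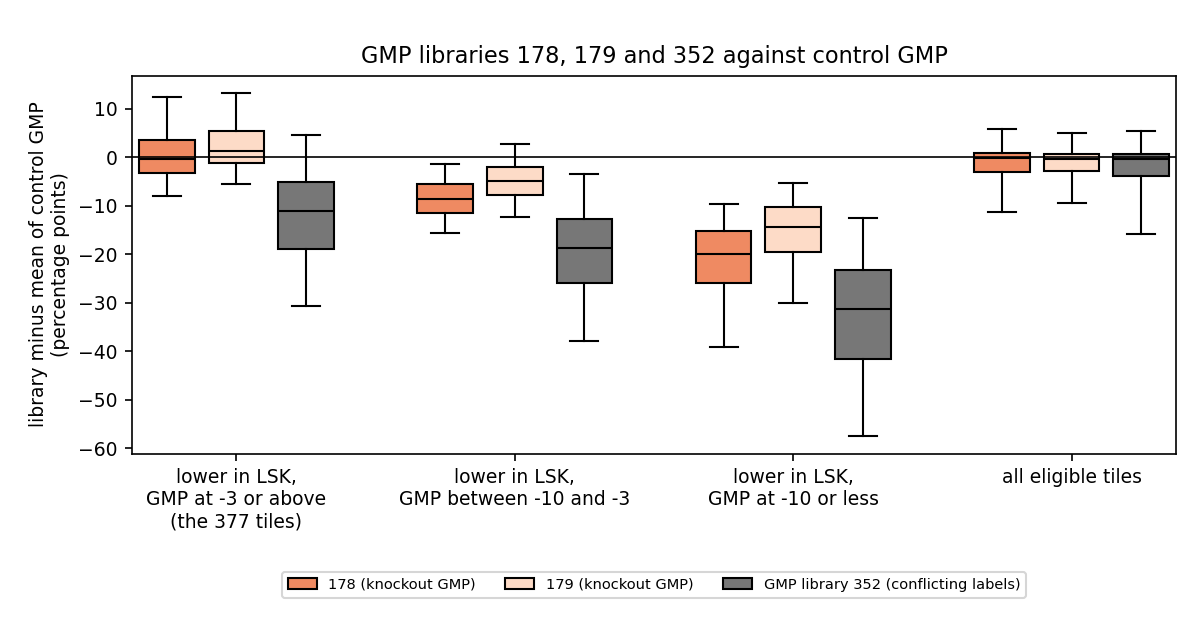
Difference of GMP libraries 178, 179 and 352 from the mean of control GMP (percentage points) in the 377 tiles, in the other tiles lower in knockout LSK and in all eligible tiles, shown as the median, the quartiles and whiskers at the 5th and 95th percentiles. In the 377 tiles 178 and 179 are centred at -0.40 and 1.32 points and 352 at -11.1.

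The level in control GMP divided the tiles. In 39 it was under 15%, where a loss of 15 points is not possible, and library 352 was at least 10 points lower in 5.13% of these, against 0.57% of all eligible tiles in that band and 5.96% of those with at least 15% in control LSK. In the 53 tiles with 15 to 30% it was at least 10 points lower in 43.4%, against 31.7% of all eligible tiles in that band. In the tiles with 30 to 50% it was at least 10 points lower in 66.3%, against 42.0%. In the tiles with 50 to 70% it was at least 10 points lower in 77.7%, against 38.3%. Above 70% the share was 55.1%, against 9.10%. Control GMP was at least 10 points below control LSK in 170 tiles, within 10 points in 202 and at least 10 points higher in 5, with a median of -8.93 points against -0.07 over all eligible tiles. Chosen without knockout LSK 1327, the tiles had a median of -5.65 points. Knockout LSK was within 10 points of control GMP in 149 tiles, at least 10 points lower in 188 and at least 10 points higher in 40, where 89613, 6381 and 2060 of all 98054 tiles fell. The rule used these values too.

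**Figure D4:**
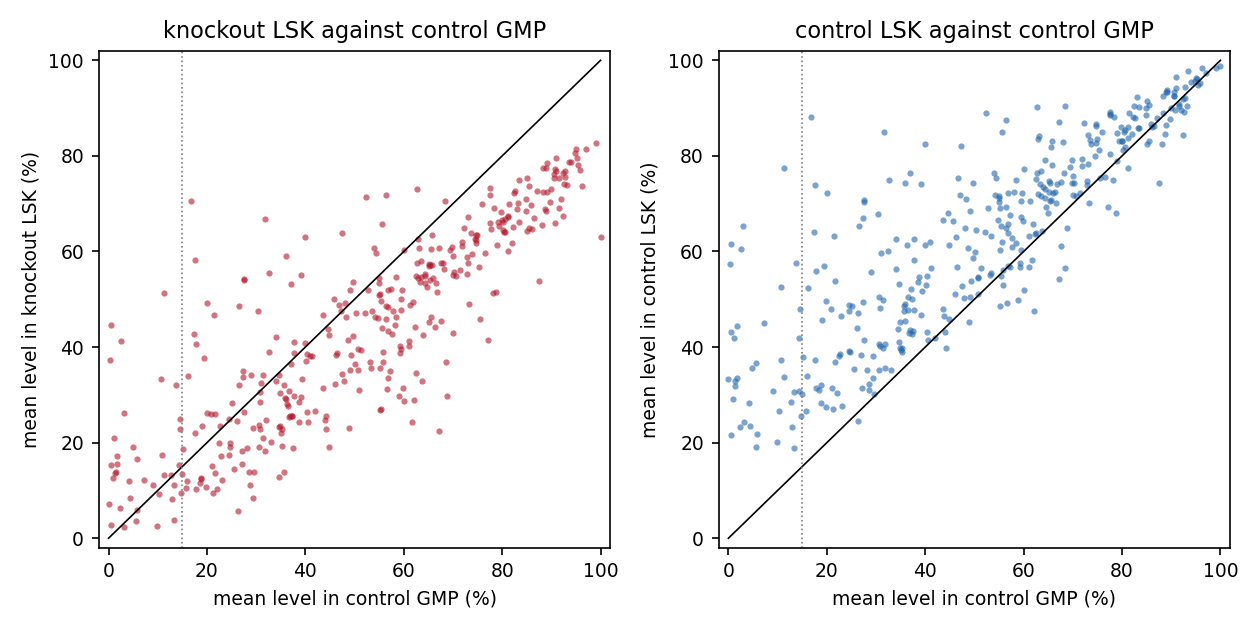
Mean level of the 377 tiles in knockout LSK (left) and control LSK (right) against the mean level in control GMP (%), 1 point per tile, with the line of equality and a dotted line at 15%. Knockout LSK is at least 10 points below control GMP in 188 tiles and control LSK is at least 10 points above it in 170.

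The largest loss was in a tile with little methylation in GMP. In Pik3c2b, a class II phosphoinositide 3-kinase, the tile chr1:133076001-133077000 in the gene body was at 35.8%, 22.2% and 20.7% in knockout LSK, against 73.3%, 56.2% and 66.2% in control LSK. The difference was -39.0 points. In GMP the tile was nearly unmethylated whatever the genotype, with 0% and 3.28% in knockouts, 3.37% and 2.75% in controls and 3.24% in 352. In Tgfbr2, the type II receptor of TGF-beta (chr9:116121001-116122000), knockout LSK had 12.8%, 13.7% and 10.1% and control LSK 44.5%, 45.4% and 44.9%. Knockout GMP had 8.73% and 6.25%, control GMP 8.37% and 6.02%, and 352 4.14%, so knockout LSK stood near the level of GMP.

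The receptor gene Notch2 held another such tile (chr3:98024001-98025000, gene body, 8 C positions). Knockout LSK had 21.2%, 23.3% and 18.4% and control LSK 48.8%, 39.3% and 37.6%, while all 5 GMP libraries were below 2%, which left no room for a loss in GMP. Rnf43 encodes a ubiquitin ligase that removes Wnt receptors from the membrane. Its tile (chr11:87719001-87720000) had 65.7%, 46.5% and 42.0% in knockout LSK, against 77.9%, 75.3% and 79.5% in control LSK, and 6.56% to 13.4% in the GMP libraries. Of the 27 named tiles, 7 had a control GMP mean under 15%.

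In other tiles GMP was as methylated as control LSK. Such were the tiles of Camta1, a calmodulin-binding transcription activator, and Paqr5, a membrane progestin receptor. The Camta1 tile (chr4:151774001-151775000) had 32.3%, 24.9% and 32.1% in knockout LSK, against 69.1%, 62.4% and 63.1% in control LSK. In GMP it had 74.0% and 62.4% in knockouts, 67.4% and 70.3% in controls and 68.3% in 352 (95% Wilson interval 64.5% to 71.8%, counting error only). Here the lowest of the 5 GMP libraries, including the one outside the rule, was above the highest knockout LSK library. The Paqr5 tile (chr9:62018001-62019000) had 53.0%, 41.1% and 43.4% in knockout LSK, against 76.3%, 70.7% and 79.3% in control LSK. In GMP it had 83.3% and 90.6% in knockouts, 75.5% and 75.6% in controls and 74.4% in 352, so the GMP knockouts lay above their controls.

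Smad6 encodes an inhibitor of BMP signalling. In its tile (chr9:63973001-63974000, 11 C positions) knockout LSK had 51.8%, 28.8% and 43.9% and control LSK 71.7%, 70.6% and 65.9%. Knockout GMP had 77.1% and 87.2%, control GMP 79.3% and 75.05%, and 352 69.9%, a difference of -7.31 points from the controls. The Camta1, Paqr5 and Smad6 tiles, and of the other named tiles those in Tle3 and Kit and near Gm36223 and Gm35104, lie in 5-Mb windows in which the genotypes listed different C positions in at least one cell type. The Paqr5, Smad6 and Tle3 tiles lie in the same window, so they are not separate regions. There were 30 such windows, 28 found in GMP and 3 in LSK. Such windows held 40 of the 377 tiles (10.6%, against 6.59% of all eligible tiles). Without them 337 tiles were left, with medians of -18.3 points for LSK, 0.10 for GMP and -11.3 for 352 minus control GMP. The part of the windows in the values of the named tiles was not tested.

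Another kind of tile was high in the labelled GMP libraries and low in library 352. Ptprb, a receptor-type tyrosine phosphatase of endothelium, had 53.0%, 42.7% and 37.2% in knockout LSK, against 73.0%, 76.4% and 67.9% in control LSK (chr10:116310001-116311000). Knockout GMP had 71.1% and 70.6%, control GMP 63.3% and 69.2%, and 352 30.9% (Wilson interval 26.6% to 35.4%). Library 352 thus lay below every knockout LSK library. Sipa1l3 (chr7:29453001-29454000) had 32.4%, 17.0% and 23.7% in knockout LSK and 59.7%, 53.7% and 61.3% in control LSK. Its levels were 66.4% and 58.5% in knockout GMP, 68.5% and 55.1% in control GMP and 19.2% in 352.

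In Tle3, a Groucho-family corepressor (chr9:61401001-61402000), knockout LSK had 57.2%, 71.5% and 53.2% and control LSK 91.2%, 90.2% and 79.9%. Knockout GMP had 64.97% and 68.7%, control GMP 66.97% and 67.3%, and 352 37.9%. Dgat2, an enzyme of triglyceride synthesis, had a smaller gap: 352 was at 60%, with knockout GMP at 70.4% and 67.5% and control GMP at 67.7% and 72.3%. Over all 27 named tiles, 352 was at least 10 points below control GMP in 11, between -10 and -3 points in 7 and at -3 points or above in 9.

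**Figure D5:**
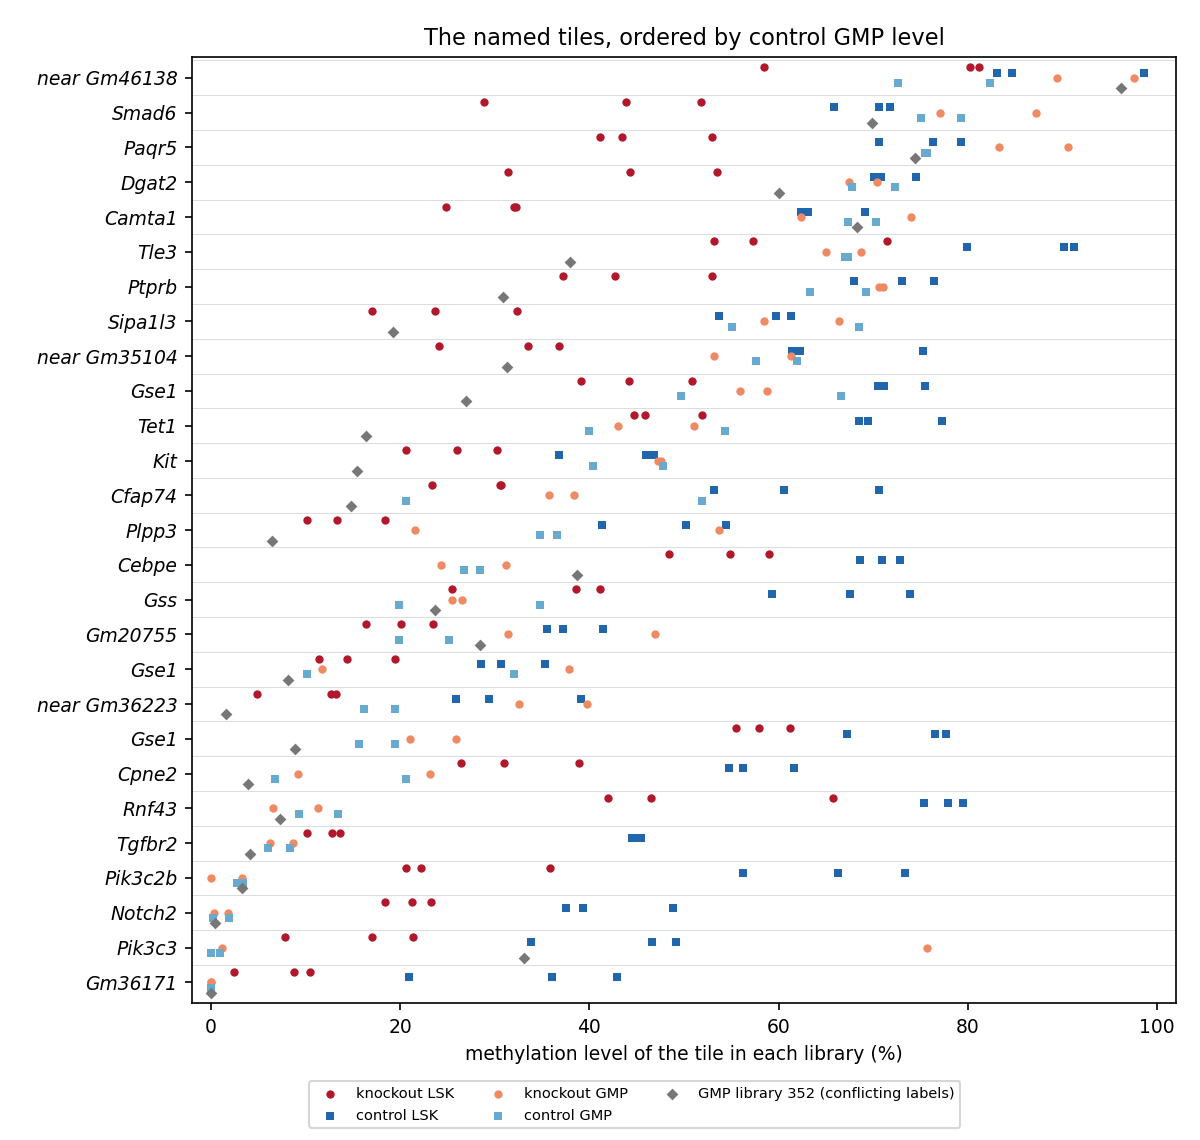
Methylation level (%) of each of the 27 named tiles in every library, with tiles ordered from high control GMP (top) to low (bottom). Knockout LSK lies left of control LSK in every tile by the rule, and library 352 is at least 10 points below control GMP in 11.

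Where knockout GMP libraries disagreed, a GMP mean hid the difference. In Plpp3, a phosphatase of lysophospholipids (chr4:105159001-105160000), 178 had 21.6% and 179 had 53.7%, against 34.8% and 36.6% in control GMP. The mean difference of 1.95 points came from values on either side of the controls, and 352 had 6.45%. Libraries 178 and 179 lay on opposite sides of the control mean by at least 5 points in 36 of the 377 tiles. The Cfap74 tile had the reverse spread, with 35.8% and 38.4% in knockout GMP and 20.6% and 51.9% in control GMP. The groups of 2 overlapped in 307 tiles, the knockouts were both above the controls in 54 (14.3%, against 11.2% of all eligible tiles) and both below in 16 (4.24%, against 26%), and the rule's limit bears directly on these counts.

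Among tiles with a mean coverage of at least 20 reads per C position in every library, the 4 largest rises in knockout GMP with no overlap were in Pik3c3 and Gm20755 and near Gm36223 and Gm46138. Pik3c3 encodes the class III phosphoinositide 3-kinase of autophagy and endosomes. Its tile (chr18:30267001-30268000) had 75.7% in 178 and 1.22% in 179, against 0% and 1.002% in control GMP, and 33.1% in 352. The rise was thus carried by 178. In LSK the tile had 17.1%, 7.78% and 21.4% in knockouts and 33.9%, 49.2% and 46.7% in controls. The tile 18730 bp from Gm36223 (chr5:111531001-111532000) had 32.6% and 39.8% in knockout GMP, against 19.4% and 16.1% in control GMP.

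The 377 tiles touched 303 genes, of which 244 were protein-coding. Gse1 was the only gene with 3 of them and 10 genes held 2. The Gse1 tiles differed in GMP: chr8:120378001-120379000 had 25.9% and 21.0% in knockout GMP and 15.6% and 19.5% in control GMP, while chr8:120518001-120519000 had 55.9% and 58.8% in knockouts and 49.7% and 66.6% in controls. In LSK the first had 55.5%, 61.2% and 57.9% in knockouts and 67.2%, 76.5% and 77.7% in controls. The tile between them (chr8:120509001-120510000) had 14.4%, 11.5% and 19.4% in knockout LSK, against 35.4%, 28.6% and 30.7% in control LSK. In GMP it had 11.8% and 37.9% in knockouts and 10.1% and 32% in controls. The tile chr8:120518001-120519000 had 39.1%, 44.2% and 50.8% in knockout LSK, against 70.5%, 75.5% and 71.2% in control LSK. Library 352 was below both control GMP libraries in every Gse1 tile, at 8.89%, 8.11% and 26.9% in order of position.

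Genes of blood cell identity held few of the tiles in number. Shares of list tiles below stand beside the 0.384% of all tiles and were not tested. Of 344 eligible tiles in a list of 34 measured stem cell and self-renewal genes, 1 was a member (0.29%). Of the same 344, 29 in 9 genes were lower in both cell types, where 1284 of all 98054 tiles were. The other lists held from 0 (lymphoid, of 153 tiles) to 8 (leukaemia, of 155) such tiles. The member tile of the stem cell list lay in Kit, the stem cell factor receptor that serves in both sorting gates. Its tile (chr5:75590001-75591000) had 26.04%, 30.3% and 20.6% in knockout LSK, against 36.8%, 46.9% and 46.0% in control LSK. Knockout GMP had 47.2% and 47.5%, control GMP 40.4% and 47.8%, and 352 15.4%. Of 65 tiles in 22 myeloid differentiation genes, 1 was a member (1.54%), in Cebpe, a transcription factor of late granulocyte maturation. The Cebpe tile (chr14:54712001-54713000) had 58.9%, 54.9% and 48.4% in knockout LSK, 68.6%, 70.9% and 72.8% in control LSK, 31.2% and 24.3% in knockout GMP and 26.8% and 28.5% in control GMP. Library 352 was higher there, at 38.7%.

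Of 68 tiles in 10 genes of the methylation machinery, 1 was a member (1.47%, against 0.384% of all tiles), in Tet1, which oxidises methylcytosine. The tile also overlaps Gm51805 and lies within 1 kb of a gene end, not necessarily that of Tet1. Knockout LSK had 44.7%, 45.8% and 51.9% in the tile (chr10:62866001-62867000) and control LSK 68.5%, 77.3% and 69.4%. Knockout GMP had 43.1% and 51.1%, control GMP 54.3% and 40.0%, and 352 16.4%. Of 149 tiles in 30 genes of signalling, adhesion and homing, 2 were members (1.34%), those in Notch2 and Pik3c2b. The leukaemia list, with 155 tiles in 27 genes, held only the Kit tile (0.65%), which it shares with the stem cell list. The erythroid and megakaryocyte (67 tiles), lymphoid (153) and endothelial and stromal lists (66) held no member, where 0.384% of so few tiles is under 1.

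Position was not part of the rule. Gene bodies held 57.0% of the tiles, stretches within 1 kb of a gene end 20.7% and intergenic sequence 22.3%. Over all eligible tiles these shares were 43.9%, 31.9% and 24.3%, and over tiles with at least 15% in control LSK they were 52.9%, 16.3% and 30.9%. Tiles lower in both cell types had 59.3%, 22.7% and 18.1%. A tile had a median of 4 used C positions, and 268 of the 377 had 3 to 5. Chromosomes held between 0.159% (chromosome 3) and 0.647% (chromosome 12) of their eligible tiles.

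The C positions that make up the tile levels varied within a tile. Of 1954 C positions in the tiles, 1872 (95.8%) were lower on average in knockout LSK, 1498 (76.7%) by at least 10 points, and 1192 (61.0%) had all 3 knockouts below all 3 controls. Choosing tiles by their loss makes high shares necessary. The LSK difference had a median SD of 10.4 points among the positions of a tile. Of the tiles, 126 had an eligible neighbour, and the 137 neighbours outside the set had a median LSK difference of -1.78 points, with 11 of them (8.03%, against 2.33% of all eligible tiles) meeting the LSK condition. The 91 neighbours with at least 15% in control LSK had a median of -3.67 points, against -0.96 over all such tiles. A tile lower in both cell types lay within 10 kb of 24 members (6.37%), of 11.6% of the tiles in the middle class and of 3.14% of all other tiles with at least 15% in control LSK.

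The limits of the rule cut through a continuous range. Just inside the LSK limit were tiles in Lnx1 (-15.01 points) and near Gm40838 (-15.02), and just outside it tiles in Prdm16 (-14.99) and Mdga1 (-14.99). Just inside the GMP limit were tiles in C030037D09Rik (-2.99) and at 3110082I17Rik/C130050O18Rik (-2.97), and just outside it tiles in Col13a1 (-3.05) and Myh14 (-3.05). In 352 these 8 tiles ranged from -20.3 to -0.05 points, in no order set by the limits.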

How the data were processed

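Libraries were made from MspI fragments and bisulfite-converted, per the labels' protocols. The deposited tables give, per the file headers, a read count (the coverage) with the percent of C and T for each C position, with no position under 10 reads. The submitters' processing notes name Bismark, mm10 and GRCm38, without versions. Methylated reads were recovered as coverage times percent and were whole at all positions to within the rounding of the percent (0.0005 percentage points). Levels were summed reads per 1000-bp tile on autosomes. Depth, as coverage summed over C positions, was 157 to 181 M (1e6) in LSK and 95.4 to 110 M in GMP libraries. Wilson intervals (95%) cover counting error only, and reads carry no molecular identifiers. A read over several C positions of a tile was counted at each of them, so the intervals can be too narrow.

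The members and lists were chosen with earlier results of these data known, so nothing was tested. Named tiles had a mean coverage of at least 20 in every library and were those with the largest LSK loss (8), the largest with all 4 GMP at 60% or above (6), the largest with control GMP under 15% (6), the largest GMP rises (4), tiles of genes holding 3 or more, and tiles in listed genes. The planned rule for sequences gave no promoter window with used positions, so windows chosen after their values were seen are shown. Gene positions are from RefSeq (GRCm38.p6, no strand). A simulated loss of 25 or 40 points was used to check the rule. Python 3.11.15, numpy 2.4.6, pandas 2.3.3, scipy 1.17.1 and matplotlib 3.10.9 were used. Alternatives changed the positions, coverage, tile frame, averaging, thresholds, windows and libraries.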

Additional observations from a re-analysis of the deposited data

Results flagged for a closer look

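In 7 named tiles the knockout libraries lay below all controls in LSK and above both controls in GMP, with no overlap in either cell type. Both knockout GMP libraries were above both controls in 14.3% of the 377 tiles, against 11.2% of all eligible tiles. Gaps could be small: at Pik3c3 knockout 179 had 1.22% and control 349 had 1.002%. The GMP difference was 11.4 points in Paqr5, 4.54 in Ptprb, 38.0 in Pik3c3 (carried by library 178), 5.90 in Gse1 (start 120378001), 16.6 in Gm20755, 18.4 near Gm36223 and 16.03 near Gm46138. The LSK differences were chosen by the rule, 4 of these tiles were named for their GMP rise, and the difference between cell types was not tested. Library 352, outside the rule, was above control GMP by 32.6 points at Pik3c3, by 5.92 at Gm20755 and by 18.7 near Gm46138, and differed from it by -1.13 at Paqr5, -35.4 at Ptprb, -16.1 near Gm36223 and -8.68 at Gse1.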

How the results depend on the processing

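Of 126 alternative values, 104 stayed within the limits set for them and 22 moved. A reversed sign was counted only for the LSK and 352 medians, with 0 found, and the rule fixes the LSK sign. The GMP median changed sign, from 0.25 to -1.15 points with the GMP limit at -5, and was counted as moved. The count of 377 tiles became 149 with at least 5 C positions, 130 with an LSK loss of 20 points or more and 199 with a GMP difference at 0 or above. Leaving out each library gave 325 to 755 tiles, the highest without knockout LSK 1327. Of the 377 tiles, these sets kept from 63.4% (without knockout LSK 1333) to 96.55% (without 1327). Averaging over C positions kept 64.2% of the 377, and a coverage of at least 20 kept 71.1%, so similar counts did not mean the same tiles. With the 20-point LSK limit the medians were -23.1 points for LSK, -13.5 for 352 minus control GMP and -12.1 for control GMP minus control LSK. With the GMP limit at 0 they were 2.68 for GMP and -10.4 for control GMP minus control LSK, and with it at -5 they were -1.15, -7.05 and, for 352, -12.9. Without each library the GMP median ran from 0.387 to 1.63, the 352 median from -14.5 to -8.05, control GMP minus control LSK from -11.2 to -5.65 and the share under 15% in control GMP from 7.5% to 11.2%. The 2 labelled GMP libraries per genotype and 3 to 5 positions in most tiles limit the precision. No paired analysis was possible because no test was run and the labels share no library numbers between groups.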
